A study of Homo sapiens with 7 samples.

Results

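Chromosome 8 had the highest contact coverage per bin of the 22 autosomes in 3 of 7 Hi-C libraries of DLD-1. DLD-1 is an established cell line from a human colorectal adenocarcinoma. The account covers the contacts of chromosome 8 with 19 partner chromosomes (1 to 18 without 8 itself, 20 and 21), which are 19 of the 253 pairs formed by chromosomes 1 to 22 and X. It also covers the contacts within chromosome 8, within its short arm (8p) and its long arm (8q), and between these arms, which make up 8701 of the 185133 entries by region and separation in each library. Chromosome 8 was chosen because its raw contact coverage was high in the knockout libraries. Its coverage and its contact folds between genotypes are therefore a description, and no test was made on them.

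In Hi-C, DNA ends that lay close together in the nucleus are joined and sequenced as a pair, and each joined pair is a contact between 2 positions of the genome. All cells carried DNMT1-AID, a form of the maintenance DNA methyltransferase DNMT1 with a degron that leads to its degradation when auxin (indole-3-acetic acid, 500 nM) is added. The knockout cells also lacked DNMT3B, an enzyme that can methylate unmethylated DNA. They gave 3 libraries, untreated or with 4 d or 10 d of auxin. The DNMT1-AID cells with intact DNMT3B gave 4 libraries, untreated, with 4 d or 10 d of auxin, and with a 4 d washout that followed 4 d of auxin. The untreated knockout library was grouped by its title, since its genotype label names only DNMT1-AID. The labels do not say whether either line was grown from 1 clone. Cells without the degron were not analysed here, so auxin as a compound and the loss of DNMT1 that it brings about cannot be told apart.

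Chromosomes occupy separate territories in the interphase nucleus, so most contacts of a chromosome are with itself. The frequency of these contacts falls with distance along the DNA. A raw contact count depends on how much DNA of a region is in the sample as well as on how it is folded, and an extra copy adds contacts with every partner. Gain of chromosome 8 or of its long arm is common in colorectal tumours. Raw coverage is not a count of copies, and in a population more copies in every cell and a larger gain in some of the cells cannot be told apart.

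Chromosome 8 is 145.15 Mb long by its 50 kb bins in build hg38, with a short arm of 44.95 Mb and a long arm of 100.2 Mb. The 5 autosomes nearest in length are 7, 9, 10, 11 and 12, and they served as its comparison. In the RefSeq table of GRCh38, chromosome 8 holds 715 protein-coding genes, or 4.93 genes per Mb, the 19th of 22 autosomes in gene density. The authors' deposited clusters of the untreated DNMT1-AID library placed 47.2% of its 2691 clustered bins in B2/B3, the second highest share of 21 autosomes, where all autosomes together had 36.8%. It had 1.08% of its bins in A1, against 7.08% over all autosomes, which ranked 20 of 21. The cluster named V+VI held 29.2% of its bins, as in all autosomes together (29.2%), A2 held 21.7% against 26.3%, and B4 held 0.706% (19 bins) against 0.612%.

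The libraries held between 27345260 contacts (DNMT1-AID washout) and 222645438 contacts (DNMT1-AID, 4 d of auxin), counting contacts within a chromosome from 100 kb on. Each group held 1 library, so no value below has a replicate check, no p-value was computed, and differences cannot be set against the spread between cultures. The intervals are 95% intervals for counting error only.

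The first question was whether the coverage of chromosome 8 differed between genotypes at each time. It was 1.42 to 1.43 times as high in knockout as in DNMT1-AID cells, untreated and under auxin alike, while no other autosome was above 1.04 times. In the knockout libraries, chromosome 8 had 5749314 contacts within itself and 3394473 to other chromosomes without auxin, 7666741 and 4324727 after 4 d, and 7165405 and 5264395 after 10 d. In the DNMT1-AID libraries it had 4768469 within itself and 2334939 to others without auxin, 9301502 and 4396138 after 4 d, 6160659 and 3995397 after 10 d, and 1109360 and 599857 after washout. These counts follow the depth of each library and are compared only as shares.

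Each contact was counted at both its ends, and chromosome 8 held 7.33%, 7.38% and 7.38% of the contact ends in knockout cells untreated, after 4 d and after 10 d. It held 5.17%, 5.16%, 5.15% and 5.15% in DNMT1-AID cells untreated, after 4 d, after 10 d and after washout. The 3 knockout libraries lay above all 4 DNMT1-AID libraries with no overlap. Lack of overlap was not particular to chromosome 8, since the shares of all 5 similar-length autosomes also separated the genotypes, in the other direction. Chromosome 7, for example, held 5.26% to 5.30% in knockout and 5.39% to 5.41% in DNMT1-AID libraries. As a fold of the share in DNMT1-AID cells, chromosome 8 was at 1.42 untreated, 1.43 after 4 d and 1.43 after 10 d. The 5 similar-length autosomes had medians of 0.978, 0.976 and 0.977, since the share of one chromosome can only grow at the cost of the others. At a fold of 1.2 or more, chromosome 8 was the 1 of 23 chromosomes called higher at each time (4.35%), which is what the choice of this chromosome used.

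Coverage per bin places these shares on the scale of a typical chromosome. Divided by the median chromosome of its library, chromosome 8 had 1.45, 1.47 and 1.47 contact ends per valid 50 kb bin in knockout cells (untreated, 4 d, 10 d), the highest of 22 autosomes in each. In the 4 DNMT1-AID libraries it had 1.01 in each and ranked 9 or 10 of 22. The number of valid bins of chromosome 8, those kept by the authors' balancing, was between 2697 and 2720 in knockout and between 2681 and 2707 in DNMT1-AID libraries. Chromosome 10 was the nearest to it, with 1.34 to 1.37 in the knockout libraries and 1.34 to 1.37 in the DNMT1-AID libraries, so its high coverage did not separate the genotypes. Chromosome X lay between 0.465 and 0.472 over the 7 libraries.

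**Figure D1:**
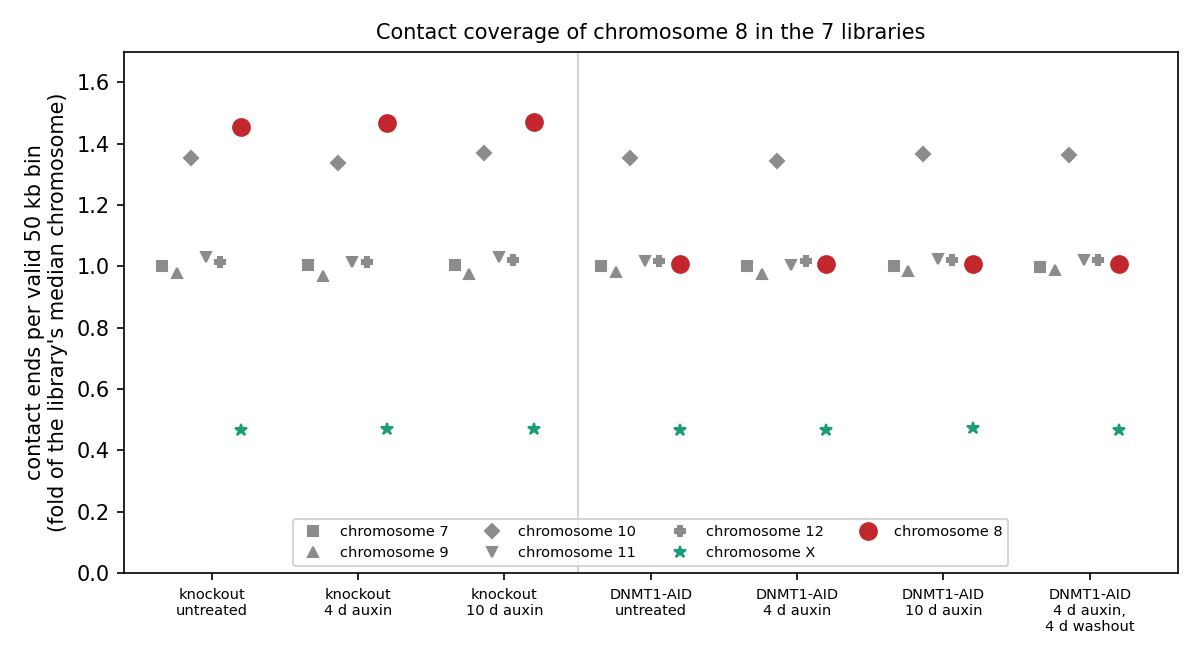
Contact ends per valid 50 kb bin (vertical axis, as a fold of the median chromosome of the library) for chromosome 8 (red), the 5 autosomes nearest in length (grey) and chromosome X (green), 1 point for each chromosome and library. Chromosome 8 sits at 1.45 to 1.47 in the 3 knockout libraries and at 1.01 in the 4 DNMT1-AID libraries, while chromosome 10 sits at 1.34 to 1.37 in all 7.

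Both arms of chromosome 8 carried the higher coverage, as did the contacts between the arms and those with other chromosomes. Within 8p there were 1370374 contacts in untreated knockout cells and 1168646 in untreated DNMT1-AID cells. Scaled by the same ratio in the short arms of the other autosomes, this was 1.42-fold (interval 1.417 to 1.424). Within 8q there were 4077477 contacts in knockout and 3337820 in DNMT1-AID cells, a scaled fold of 1.48 (1.478 to 1.482). The other 16 short arms lay between 0.961 and 1.04 and the other 21 long arms between 0.980 and 1.04. The scaled fold of 8q lay above that of 8p at all 3 times, by more than counting error. Counting error is small here beside the spread of the other arms. After 4 d and 10 d of auxin the other short arms lay between 0.962 and 1.07, and the other long arms between 0.958 and 1.03. Whether 8q and 8p differ beyond that spread was not tested.

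After 4 d of auxin the scaled fold was 1.43 for 8p, 1.52 for 8q, 1.44 between the arms and 1.44 with other chromosomes. After 10 d it was 1.44 for 8p, 1.497 for 8q, 1.49 between the arms and 1.46 with other chromosomes. Without auxin the contacts between the arms, 301463 in knockout and 262003 in DNMT1-AID cells, gave a scaled fold of 1.46, and the contacts with other chromosomes gave 1.45. All 4 kinds of contact, parts of the coverage that chose the chromosome, lay above the range of the other autosomes at each time. That range was widest for contacts between arms, from 0.849 to 1.14 over the 3 times.

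The contacts with single partner chromosomes were next taken one by one, to ask whether the higher contact of chromosome 8 reached all partners. All 19 partners had a fold of at least 1.2 between knockout and DNMT1-AID cells at each of the 3 times. Of all 253 pairs, 8.70% were called in that way untreated, 8.70% after 4 d and 9.88% after 10 d, and no more is read from the count, since these contacts chose the chromosome. Each fold is relative to the median of the 171 pairs among the partners that do not involve chromosome 8. The median over the 19 partners was 1.46 untreated (range 1.33 to 1.503, SD 0.0434), 1.44 after 4 d (1.35 to 1.49, SD 0.0453) and 1.49 after 10 d (1.40 to 1.53, SD 0.0388). The 171 pairs without chromosome 8 reached at most 1.12, 1.17 and 1.24, and at each time every pair with chromosome 8 lay above them. No more is read from this either, since the choice of the chromosome used these contacts.

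Chromosome 7, the partner of highest fold untreated and after 4 d, had 191815, 245536 and 293753 contacts with chromosome 8 in knockout cells (untreated, 4 d, 10 d). It had 128487, 241185, 219017 and 32836 in DNMT1-AID cells (untreated, 4 d, 10 d, washout). The folds were 1.503 (interval 1.493 to 1.514), 1.49 (1.484 to 1.501) and 1.51 (1.503 to 1.520). The 3 folds lay far closer to each other than to 1.

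Chromosome 21, the shortest of the partners, had the lowest fold at each time. It had 51555, 68431 and 81576 contacts with chromosome 8 in knockout cells and 39083, 74452, 65827 and 10157 in DNMT1-AID cells, in the same orders. The folds were 1.33 (1.311 to 1.346), 1.35 (1.333 to 1.361) and 1.40 (1.382 to 1.411). The intervals of chromosomes 7 and 21, picked here for their high and low folds, did not overlap at any time. These partners differed by more than counting error, with no allowance made for the choice. The 171 pairs without chromosome 8 had SDs of 0.0435 untreated, 0.0385 after 4 d and 0.0524 after 10 d, so a spread of this size was not particular to chromosome 8.

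Chromosome 1, the longest partner, had 300692, 381575 and 474716 contacts with chromosome 8 in knockout cells and 205084, 383692, 349610 and 53101 in DNMT1-AID cells. Its fold was 1.48 untreated, 1.46 after 4 d and, as the highest of the 19, 1.53 after 10 d. It was 1 of 5 partners, with 2, 6, 7 and 10, that lay above the median partner at all 3 times. Their folds ran from 1.45 (chromosome 10 after 4 d) to 1.53. The 7 partners 5, 13, 14, 16, 18, 20 and 21 lay above it at no time, with folds from 1.33 to 1.47. The other 7, namely 3, 4, 9, 11, 12, 15 and 17, lay above it at 1 or 2 times, with folds from 1.43 to 1.51.

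The order of the partners was similar at the 3 times, which share no library. Spearman's rho of the 19 folds was 0.86 between untreated and 4 d, 0.78 between untreated and 10 d, and 0.82 between 4 d and 10 d. This rho between times was not computed for other chromosomes, so whether a stable order is particular to chromosome 8 was not tested. The fold was higher for longer partners, with a rho between fold and partner length of 0.79 untreated, 0.66 after 4 d and 0.57 after 10 d (n = 19 partners). All partners share the 1 knockout and the 1 DNMT1-AID library of a time, and longer partners also have more counts. The same rho for chromosomes 7, 9, 10, 11 and 12 with their own 18 partners lay between 0.31 and 0.49 untreated, between 0.18 and 0.63 after 4 d, and between -0.55 and 0.14 after 10 d. Chromosome 8 had the highest of the 6 at each time, and whether they differ was not tested.

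**Figure D2:**
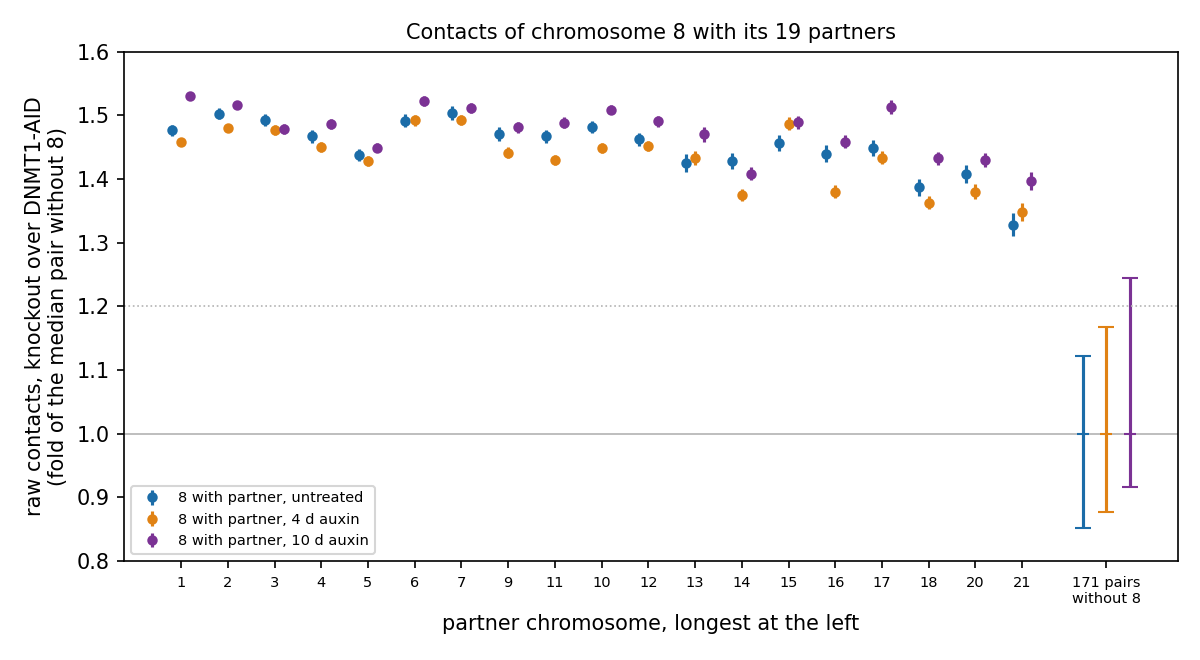
Fold of raw contacts of chromosome 8 with each of its 19 partners in knockout over DNMT1-AID cells (vertical axis, relative to the median pair without chromosome 8), with partners from the longest to the shortest on the horizontal axis and 1 colour for each time. Bars on the points are 95% counting intervals, the bars at the right span the 171 pairs without chromosome 8, and the dotted line is the 1.2-fold call. All points lie between 1.33 and 1.53, with chromosome 21 lowest at each time.

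Balanced contacts gave a smaller difference. Balancing scales every bin to the same total, so it takes out a gain in the total of a chromosome, in whole or in part, and leaves how its contacts are spread over partners. On balanced values the median fold over the 19 partners was 1.18 untreated, 1.16 after 4 d and 1.17 after 10 d, with 4, 0 and 1 partners at 1.2 or more. When each raw count was instead divided by the trans totals of both chromosomes in the pair, the medians were 1.02, 1.02 and 1.02. The trans total of chromosome 8 is part of this divisor, so a fold shared by all its partners cancels and these medians do not measure it.

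Contacts within chromosome 8 were then taken by separation, as the fold of knockout over DNMT1-AID cells relative to the median of the 5 similar-length autosomes. From 0.1 to 20 Mb the fold stayed between 1.42 and 1.54 at all times. It was 1.51, 1.52 and 1.52 at 0.1 to 0.5 Mb (untreated, 4 d, 10 d) and 1.47, 1.49 and 1.47 at 10 to 20 Mb. The lowest value untreated was 1.35 at 50 to 70 Mb, where 4 d had 1.42 and 10 d had 1.505. At 90 to 110 Mb the fold was 1.64, 1.61 and 1.72 against the 5 similar-length autosomes, above the shorter separations, but 1.61, 1.43 and 1.49 against all 12 autosomes long enough. On this second scale the values at 4 d and 10 d were not above the 1.51 and 1.504 at 0.1 to 0.5 Mb.

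At 110 to 130 Mb, chromosome 8 had 17150 contacts in knockout and 9973 in DNMT1-AID cells without auxin, a fold of 1.62 (interval 1.58 to 1.66). After 4 d there were 22970 contacts in knockout and 20004 in DNMT1-AID cells, a fold of 1.59 (1.56 to 1.62). After 10 d there were 30673 in knockout and 18865 in DNMT1-AID cells, a fold of 1.76 (1.73 to 1.79). The 5 similar-length autosomes spanned 0.913 to 1.13 untreated, 0.942 to 1.14 after 4 d and 0.939 to 1.27 after 10 d in this bin, much more than the 0.989 to 1.02 at 0.1 to 0.5 Mb untreated. Against all 11 autosomes long enough, the fold was 1.68 untreated, 1.498 after 4 d and 1.59 after 10 d, so a higher fold at the longest separations held on both scales untreated, held on both after 10 d at 110 to 130 Mb only, and after 4 d held only against the 5 similar-length autosomes.

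**Figure D3:**
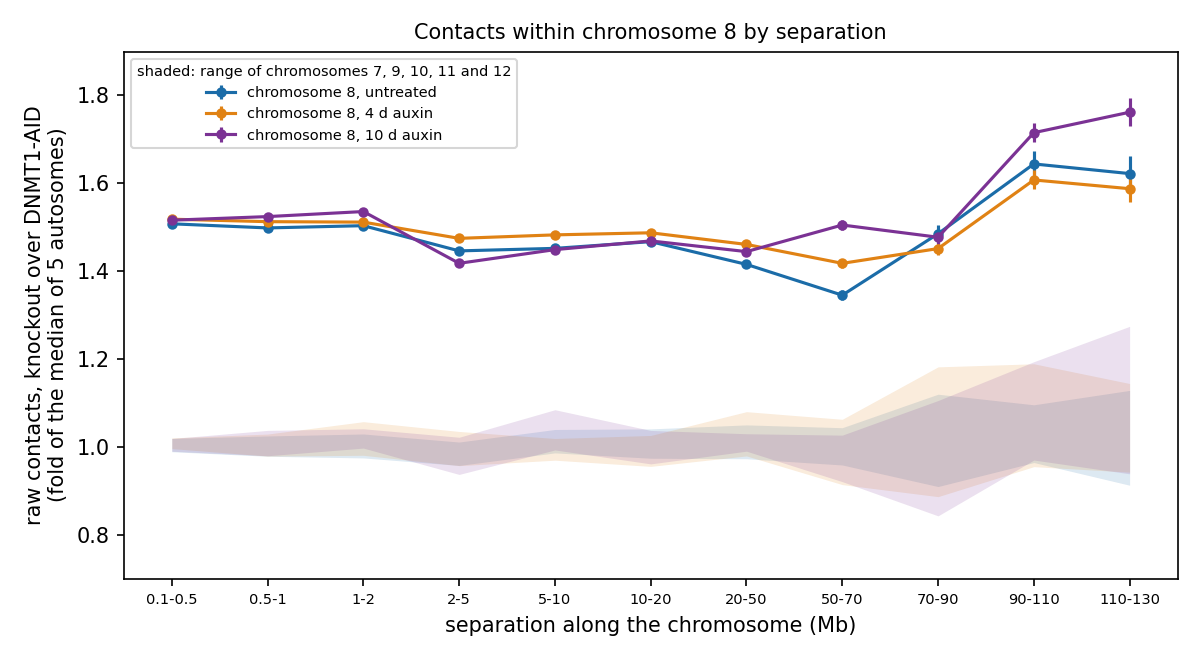
Fold of raw contacts within chromosome 8 in knockout over DNMT1-AID cells (vertical axis, relative to the median of chromosomes 7, 9, 10, 11 and 12) by separation in Mb (horizontal axis), 1 line for each time, with 95% counting intervals. The shaded bands are the ranges of the 5 similar-length autosomes, and chromosome 8 lies above them in each bin. Its values are highest at 90 to 130 Mb on this scale. Against all autosomes long enough, this did not hold after 4 d (1.43 and 1.498 in the last bins). After 10 d it did not hold at 90 to 110 Mb (1.49).

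The trans share, the share of a chromosome's contacts that went to other chromosomes, was compared next. Chromosome 8 had a higher trans share in knockout cells at each time, as did all 21 other autosomes, and where its difference stood among the chromosomes of its length depended on how the share was taken. Its trans share in raw counts was 37.1% untreated (interval 37.092% to 37.155%), 36.1% after 4 d and 42.4% after 10 d in knockout cells. In DNMT1-AID cells it was 32.9% untreated, 32.1% after 4 d, 39.3% after 10 d and 35.1% after washout (35.024% to 35.167%). The ranges of the genotypes overlapped over all times, while at each shared time the knockout library was the higher one.

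The log2 ratio of knockout over DNMT1-AID was 0.18 untreated, 0.17 after 4 d and 0.11 after 10 d. The 5 similar-length autosomes had ranges of 0.179 to 0.241, 0.190 to 0.253 and 0.112 to 0.155, and in these raw counts chromosome 8 lay below all 5 at each time. Its difference from their median was -0.024 untreated, -0.051 after 4 d and -0.027 after 10 d. The trans contacts of the other chromosomes include those with chromosome 8, which were themselves higher. With these left out, the difference was -0.0083, -0.036 and -0.012, and 4, 5 and 3 of the 5 autosomes lay above it.

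The balanced values gave the opposite order among chromosomes. The balanced trans share of chromosome 8 was 42.2%, 41.5% and 47.9% in knockout cells (untreated, 4 d, 10 d), and 33.0%, 32.3%, 39.4% and 35.1% in DNMT1-AID cells (untreated, 4 d, 10 d, washout). Its log2 ratio was 0.36, 0.36 and 0.28, the highest of 22 autosomes at each time, where the similar-length autosomes had medians of 0.18, 0.20 and 0.12. The balanced share lay 5.10 to 5.50 percentage points above the raw one in the knockout libraries and 0.0457 to 0.203 above it in the DNMT1-AID libraries. Such a gap was not particular to chromosome 8. Chromosome 10, also high in coverage, had 42.1% raw and 46.2% balanced in untreated knockout cells, and 36.7% and 40.9% in untreated DNMT1-AID cells. Chromosome 13, low in coverage, went the other way, with 42.3% raw and 35.6% balanced in untreated knockout cells. In raw counts chromosome 8 ranked 18 of 22 autosomes in trans share in each knockout library and 17 of 22 in each DNMT1-AID library.

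**Figure D4:**
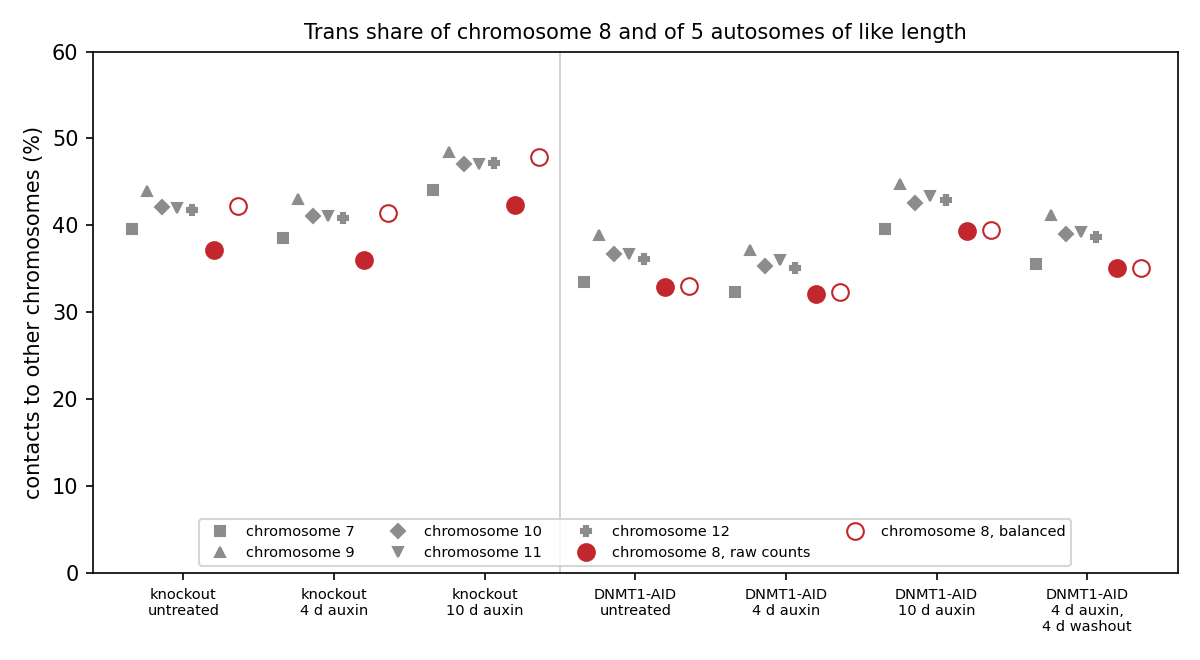
Share of contacts that went to other chromosomes (vertical axis, percent) in each library for chromosome 8 in raw counts (filled red) and in balanced values (open red), and in raw counts for the 5 autosomes nearest in length (grey). In raw counts chromosome 8 is below all 5 in each library, at 36.1% to 42.4% in knockout and 32.1% to 39.3% in DNMT1-AID cells, and the balanced value departs from the raw one in the knockout libraries.

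The decay exponent, the slope of balanced contact against separation on log scales between 0.5 and 5 Mb, describes how fast contact falls along an arm. A more negative value is a steeper fall. On 8q it was -1.46 untreated, -1.43 after 4 d and -1.39 after 10 d in knockout cells. In DNMT1-AID cells it was -1.34 untreated, -1.39 after 4 d, -1.32 after 10 d and -1.33 after washout. The untreated and 4 d knockout libraries lay below all 4 DNMT1-AID libraries, and the 10 d knockout library was level with the 4 d DNMT1-AID library.

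Knockout minus DNMT1-AID, the exponent of 8q differed by -0.11 untreated, -0.033 after 4 d and -0.066 after 10 d. The long arms of the 5 similar-length autosomes had medians of -0.078, -0.0067 and -0.023, and all 5 lay above 8q at each time. Among 22 autosomes 8q ranked 18, 18 and 20 from the highest. Between 5 and 50 Mb the difference on 8q was -0.036 untreated but 0.11 after 4 d and 0.083 after 10 d, so the steeper fall after auxin held for the shorter range only.

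On 8p the exponent was -1.53, -1.56 and -1.48 in knockout cells (untreated, 4 d, 10 d), and -1.45, -1.53, -1.44 and -1.43 in DNMT1-AID cells (untreated, 4 d, 10 d, washout). The difference was -0.081 untreated, -0.029 after 4 d and -0.042 after 10 d, and the similar-length autosomes had medians of -0.11, -0.042 and -0.029. Their values lay on both sides of 8p at each time. Short arms differ from 8p in length, and 17 autosomes had a value.

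Contact between 8p and 8q was measured as the inter-arm ratio, the mean balanced contact between arms over that within arms at 20 to 50 Mb. It was 0.636 untreated, 0.618 after 4 d and 0.600 after 10 d in knockout cells. In DNMT1-AID cells it was 0.621 untreated, 0.642 after 4 d, 0.618 after 10 d and 0.637 after washout. The genotypes overlapped. The log2 ratio of knockout over DNMT1-AID was 0.034, -0.055 and -0.042, inside the range of the 5 similar-length autosomes at each time (-0.056 to 0.24, -0.22 to 0.050 and -0.19 to 0.12). With separations matched between the numerator and the denominator it was 0.00087, -0.16 and -0.18, and at 10 to 40 Mb it was 0.095, 0.045 and 0.059, so neither the direction nor the size after auxin held under these choices. Chromosome 8 ranked 12 or 13 of 17 autosomes in this ratio in each of the 7 libraries.

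**Figure D5:**
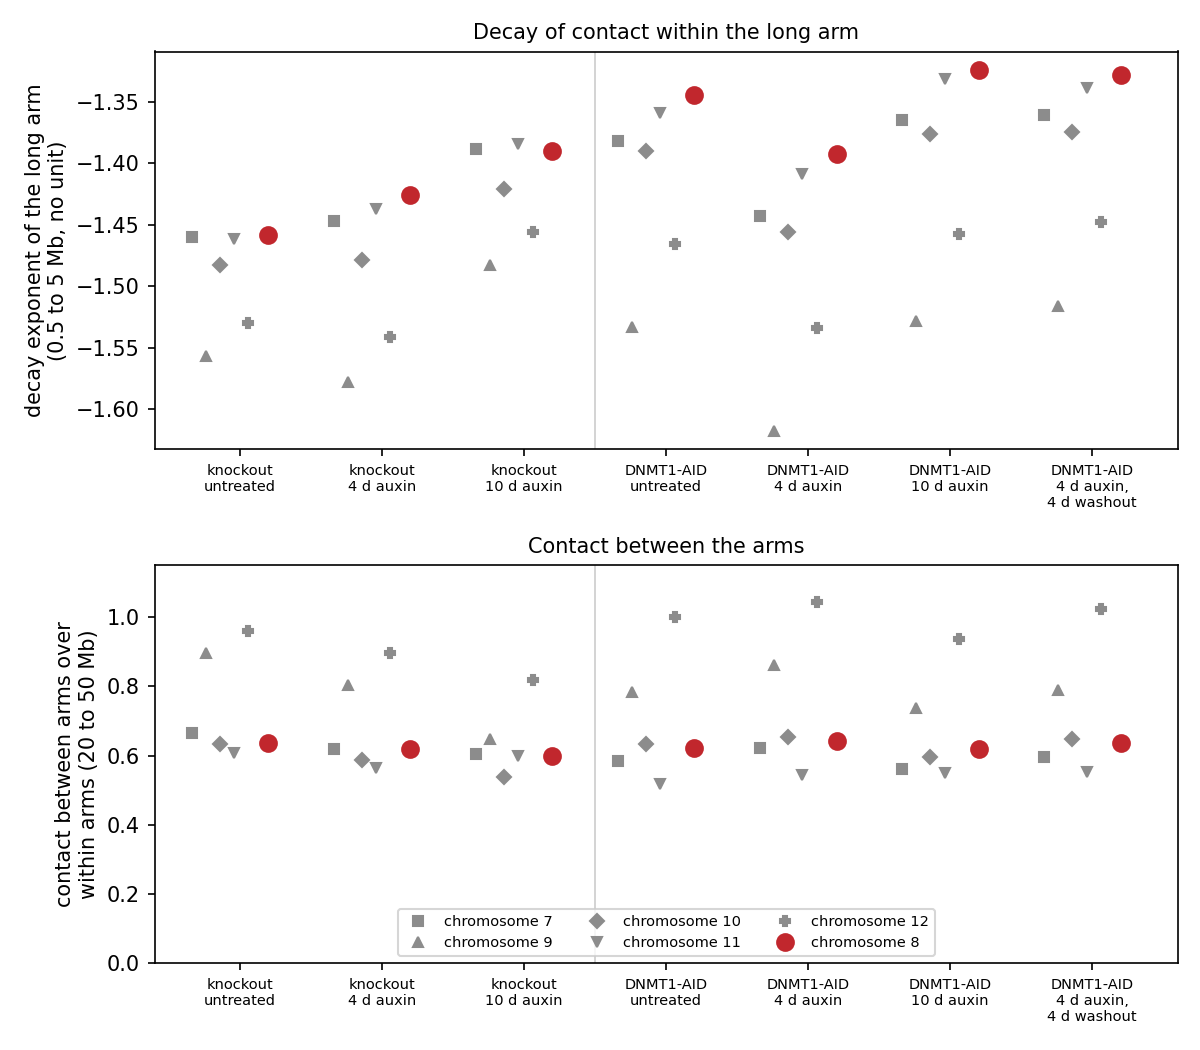
Decay exponent of the long arm between 0.5 and 5 Mb (upper panel, no unit) and inter-arm ratio at 20 to 50 Mb (lower panel, no unit) for chromosome 8 (red) and the 5 autosomes nearest in length (grey) in each library. On 8q the exponent is -1.46 to -1.39 in knockout and -1.39 to -1.32 in DNMT1-AID cells, and the inter-arm ratio of chromosome 8 stays between 0.600 and 0.642.

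The last comparisons asked whether auxin or washout moved chromosome 8 within a genotype. Its coverage stayed between 0.995 and 1.01 times that of untreated cells in each of them. The share of contact ends was 1.01-fold that of untreated cells after 4 d and 1.01-fold after 10 d in knockout cells. It was 0.998-fold after 4 d, 0.995-fold after 10 d and 0.996-fold after washout in DNMT1-AID cells. Values this close to 1 have no settled direction, since the 4 d value of DNMT1-AID cells was above 1 under all 3 other settings (1.0005 to 1.0099). None of the 23 chromosomes and none of the 253 pairs reached a 1.2-fold higher value in these comparisons (0.00% in each). The comparisons of a genotype share its untreated library.

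The trans share of chromosome 8 differed from untreated cells in the same direction as on the chromosomes of its length. In knockout cells its log2 ratio to untreated was -0.042 after 4 d, below the -0.037 to -0.031 of the 5 similar-length autosomes. After 10 d it was 0.19, above their 0.138 to 0.175. In DNMT1-AID cells it was -0.034 after 4 d, where their median was -0.049, and 0.26 after 10 d, above their 0.205 to 0.248. After washout it was 0.094 against untreated cells, within their 0.083 to 0.096. In both genotypes, the log2 ratio after 10 d of auxin was larger on chromosome 8 than on any of the 5 autosomes of similar length. This did not hold for the rise in percent. In knockout cells chromosome 12 rose from 41.7% to 47.1%, more than chromosome 8 (37.1% to 42.4%). In DNMT1-AID cells chromosome 12 rose from 36.2% to 42.9%, again more than chromosome 8 (32.9% to 39.3%). Among all 22 autosomes, chromosome 8 ranked 5 from the highest in log2 ratio in both genotypes, and 6 with the others' contacts to chromosome 8 left out. The sizes depended on the smallest separation counted. From 1 Mb on, the log2 ratio of chromosome 8 after 10 d was 0.068 in knockout and 0.17 in DNMT1-AID cells, and after 4 d it was -0.040 in knockout and 0.014, with the other sign, in DNMT1-AID cells.

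Among the partners, the median fold of contact with chromosome 8 after auxin was 0.996 at 4 d and 1.03 at 10 d in knockout cells, with 7 and 16 of 19 partners above 1. The DNMT1-AID cells had medians of 1.01 at 4 d, 1.01 at 10 d and 0.994 after washout, with 14, 13 and 7 partners above 1. By the scale used, the median of the 171 pairs without chromosome 8 is 1. Their SDs were 0.0316 and 0.0343 in knockout cells, and 0.0238, 0.0335 and 0.0150 in DNMT1-AID cells. Each SD was larger than the distance of the partner median from 1. The partners of a comparison share the same libraries, so no more is read from these counts. After division by trans totals the medians were 0.9987 and 1.0043 in knockout cells, and 0.9983, 0.997 and 0.998 in DNMT1-AID cells. The widest moves of single partners in knockout cells were those of chromosome 21 (1.05 after 10 d) and chromosome 17 (0.961 after 4 d). In DNMT1-AID cells they were chromosome 3 (1.04 after 10 d) and chromosome 17 (0.974 after 4 d). All of these are far below the folds between genotypes.

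The exponent of 8q was 0.033 higher after 4 d and 0.069 higher after 10 d of auxin than in untreated knockout cells. After 4 d the long arms of the similar-length autosomes spanned -0.021 to 0.024. After 10 d all 21 other autosomes rose as well, the similar-length ones with a median of 0.074, and 8q ranked 15 of 22. In DNMT1-AID cells the difference of 8q from untreated was -0.047 after 4 d, level with the highest of the other 21 autosomes (-0.047). After 10 d it was 0.021, where the similar-length autosomes had a median of 0.014. Over 5 to 50 Mb the differences were 0.052 after 4 d and 0.11 after 10 d in knockout cells, and -0.091 after 4 d and, with the other sign, -0.012 after 10 d in DNMT1-AID cells. The inter-arm ratio in knockout cells had a log2 ratio to untreated of -0.042 after 4 d, where the 5 similar-length autosomes spanned -0.16 to -0.10, and of -0.084 after 10 d, where their median was -0.23. For DNMT1-AID cells the log2 ratio was 0.048 after 4 d, -0.0078 after 10 d and 0.036 after washout. With separations matched it was -0.071 after 4 d and -0.18 after 10 d in knockout cells, and 0.086, -0.0046 and 0.031 in DNMT1-AID cells. At 10 to 40 Mb it was -0.048 and -0.072 in knockout cells, and 0.0010, -0.036 and 0.013 in DNMT1-AID cells. After 4 d in knockout cells the ratio of chromosome 8 at 20 to 50 Mb lay closer to its untreated value than that of each of the 5.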

How the data were processed

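Hi-C contacts of 7 libraries were used, 1 library per group. Libraries were made with an Arima Hi-C kit, per the labels' protocols, and the submitters' processing notes name BWA and hg38. Neither its version, the filter on pairs nor the balancing program is given in the sources used here. The deposited tables hold, for 50 kb bins, the raw contact count, the balanced signal (the authors' matrix-balanced contact) and the count of bin pairs with valid bins, per the file headers. The raw count includes bins that balancing left out. The smallest separation with values was 2 bins (100 kb). The authors also deposited cluster names of bins for the untreated DNMT1-AID library, in which chromosome 13 was not analysed here.

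Coverage, trans share and folds come from raw counts, and balanced folds, decay exponents and inter-arm ratios from balanced values. Pair folds were divided by the median of the 171 pairs among the partners. Arm folds were divided by the median of the other autosomes, whose contacts to chromosome 8 were left out of their trans totals. The exponent is a least-squares slope over 20 log-spaced bins. The inter-arm ratio needed 10000 bin pairs of each kind. Shares have exact binomial (Clopper-Pearson) and folds exact conditional Poisson intervals at 95%. Read pairs are not known to be independent molecules, so these cover counting error only. A fold of 1.2 was called. The 8 comparisons were knockout against DNMT1-AID at 3 times, and auxin or washout against untreated within each genotype. The alternatives were other denominators, separations, ranges and partner lists, and balanced in place of raw values. Leaving the contacts to chromosome 8 out of the other chromosomes' trans share was added after seeing the data. The design table gave 20 partners by a miscount, and 19 were used. The arm, between-arm and trans folds and the median pair fold were tested on 1 simulated library with a known fold. The 8q exponent and the inter-arm ratio with matched separations were tested on an exact power law without noise. The other measures were not tested in this way. The members, comparison chromosomes and measures were chosen with earlier results of these data known. Python 3.11.15, numpy 2.4.6, pandas 2.3.3 and scipy 1.17.1 were used.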

Additional observations from a re-analysis of the deposited data

Results flagged for a closer look

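In 4 measures of chromosome 8, and for 1 of them at both times, the effect of auxin had opposite signs in knockout and DNMT1-AID cells. With 1 library per group, none of these differences was tested. After 4 d the log2 coverage share against untreated was 0.0091 in knockout and -0.0027 in DNMT1-AID cells, a difference of 0.012, and after 10 d it was 0.0098 in knockout and -0.0070 in DNMT1-AID cells, a difference of 0.017. None of the 5 similar-length autosomes had that pattern at either time. The opposite signs did not hold at 4 d under any of the other settings, where the coverage fold of DNMT1-AID cells was 1.0005, 1.0099 and 1.0054, nor at 10 d from contacts between chromosomes, where it was 1.0095. After 4 d the log2 inter-arm ratio was -0.042 in knockout and 0.048 in DNMT1-AID cells, a difference of -0.089, and all 5 similar-length autosomes had the same signs. At 10 to 40 Mb the DNMT1-AID value was 0.0010. The 8q decay exponent differed from untreated by 0.033 in knockout and -0.047 in DNMT1-AID cells after 4 d, a difference of 0.080, with the same signs on 3 of the 5 similar-length autosomes. The log2 of the median partner fold after 4 d was -0.0063 in knockout and 0.018 in DNMT1-AID cells, a difference of -0.025. Opposite signs were lost with partners 19, 22 and X added, where the knockout fold was 1.0002, and after division by trans totals, where the folds were 0.9987 in knockout and 0.9983 in DNMT1-AID cells.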

How the results depend on the processing

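Each group held 1 library, and folds near 1 or log2 ratios near 0 have no known error beyond counting. Of the 108 alternative values for the results listed here, 22 stayed within the counting interval. The other 86 did not, or, for exponents and inter-arm ratios, had no interval to be set against. A change of called direction could be recorded for called folds only, and none of these passed to the other side of 1. The median partner fold between genotypes did fall below the 1.2-fold call on balanced values, and after division by trans totals, which cancels a shared fold. Over all results, 4 of 78 alternatives between genotypes and 17 of 120 for auxin or washout took the other sign or side of 1. No paired analysis was possible because each group held 1 library, so groups share no more than 1 replicate number. The 3 times were not taken as pairs of genotypes, which would assume the same difference at each time. Where 3 values are given, they are those of untreated cells, 4 d and 10 d.

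Knockout over DNMT1-AID, the coverage fold was 1.45, 1.46 and 1.47 with similar-length autosomes as denominator, 1.39, 1.38 and 1.41 from contacts between chromosomes, and 1.38, 1.39 and 1.41 from 1 Mb on. Scaled by similar-length autosomes, the component folds were 1.43 untreated and 1.46 after 10 d for 8p, 1.49 untreated and 1.52 after 4 d for 8q, 1.39, 1.40 and 1.46 between arms, and 1.44 untreated and 1.43 after 4 d with other chromosomes. From 1 Mb on they were 1.35, 1.38 and 1.38 for 8p and 1.45, 1.49 and 1.46 for 8q. The median partner fold was 1.18, 1.16 and 1.17 balanced, 1.46 untreated and 1.44 after 4 d with 19, 22 and X added, and 1.02, 1.02 and 1.02 after division by trans totals. The log2 trans share was 0.36, 0.36 and 0.28 balanced and 0.19, 0.13 and 0.079 from 1 Mb on. Relative to other chromosomes it was -0.0093, -0.041 and -0.018 against all autosomes, -0.027 untreated and -0.033 after 10 d without chromosome 9, and -0.0083, -0.036 and -0.012 with the others' contacts to chromosome 8 left out. The fold at 110 to 130 Mb was 1.68, 1.498 and 1.59 against all autosomes and 1.57, 1.54 and 1.59 without chromosome 9. The exponent difference from raw counts was -0.071, -0.024 and -0.040 on 8p and -0.11, -0.030 and -0.061 on 8q, and over 5 to 50 Mb it was -0.036, 0.11 and 0.083 on 8q. The log2 inter-arm ratio was 0.095, 0.045 and 0.059 at 10 to 40 Mb, 0.00087, -0.16 and -0.18 with matched separations, and 0.036, -0.080 and -0.023 from raw counts. The cause of these changes was not tested.

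Against untreated knockout cells, the coverage fold at 4 d and 10 d was 1.01 and 1.01 over similar-length autosomes, 1.002 and 1.02 from contacts between chromosomes, and 1.01 and 1.01 from 1 Mb on. In DNMT1-AID cells it was 1.0005 at 4 d over similar-length autosomes, 1.01 and 1.01 from contacts between chromosomes, 1.01 and 0.990 from 1 Mb on, and 0.993 after washout from 1 Mb on. At 10 d the trans share relative to other chromosomes was 0.025 against all autosomes and 0.024 with their contacts to chromosome 8 left out in knockout cells, and 0.034 and 0.016 in DNMT1-AID cells.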
